A study of Rattus norvegicus with 36 samples.

Results

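The muscle-type miRNAs, often called myomiRs, were followed in small RNA libraries from 3 brain regions of 12 male heterogeneous stock (HS) rats. The members were the rows of the deposited count table named miR-1, miR-133a, miR-133b, miR-206, miR-208a, miR-208b or miR-499 with any arm suffix, where 5p and 3p name the side of the precursor hairpin that gives the mature strand. The table held 14 such rows among 723 rat mature miRNAs. Of these 14, 8 had at least 1 count, and 4 had enough counts to be tested (rno-miR-206-3p, rno-miR-499-5p, rno-miR-1-3p and rno-miR-133a-3p, written without the rat prefix from here on: miR-206-3p, miR-499-5p, miR-1-3p and miR-133a-3p). Abstinence rats (n = 4) had self-administered cocaine by vein under extended access, and 4 weeks of forced abstinence followed. Withdrawal rats (n = 4) had the same kind of cocaine access and a withdrawal of 16 h in the labels, which the study's methods give as 18 h. Naive rats (n = 4) received no cocaine. The cocaine rats also had catheter surgery and behavioural tests that included foot shock, which the study does not describe for naive rats. The study matched the groups for age at the start of self-administration. Abstinence rats were kept for 4 weeks after their last session, so age at tissue collection was not matched between abstinence and withdrawal rats. The study gives no age at collection for naive rats. HS rats are an outbred stock without a transgene, so the rats of a group differed in genotype. Each rat gave the nucleus accumbens (NAc), the infralimbic (IL) and the prelimbic (PL) prefrontal cortex, which made 36 libraries of whole dissected tissue, with the shell and core of the NAc dissected jointly.

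In striated muscle these miRNAs are among the most abundant. miR-1 and miR-133a are made from shared transcripts in heart and skeletal muscle, where in mice miR-1 favours differentiation and miR-133a holds back smooth muscle genes in the heart. miR-206, made together with miR-133b, belongs to skeletal muscle, and in mice it supports the repair of neuromuscular synapses and can repress Bdnf, a nerve growth factor, in the brain. miR-208a, miR-208b and miR-499 lie in introns of myosin heavy chain genes and take part in the choice between fast and slow myosins. A mature miRNA finds its targets mainly through its seed, bases 2 to 8, so members with a common seed can be expected to share many predicted targets.

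The sequences are shown because several members are almost the same molecule, and the comparisons set them against each other. RefSeq (rat build GRCr8) held 13 of the 14 members, all but miR-206-5p. Each sequence of a member with counts on its main arm runs 5′ to 3′ with the seed in capitals:
miR-1-3p: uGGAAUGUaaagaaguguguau
miR-206-3p: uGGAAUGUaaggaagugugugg
miR-133a-3p: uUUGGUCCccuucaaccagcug
miR-133b-3p: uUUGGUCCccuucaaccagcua
miR-499-5p: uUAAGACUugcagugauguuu
miR-208a-3p: aUAAGACGagcaaaaagc
miR-208b-3p: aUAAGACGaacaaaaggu
miR-1-3p and miR-206-3p share their seed and are identical at 19 of 22 bases. Counted from the 5′ end, with the miR-1-3p base first, they differ by A11G, A21G and U22G. miR-133a-3p and miR-133b-3p share the other common seed and differ at their last base alone, G22A with the miR-133a-3p base first. miR-208a-3p and miR-208b-3p share a seed with each other. miR-499-5p is identical to both miR-208 members over the 6 bases from base 2 to base 7 and differs from them at base 8, U8G. RefSeq also lists miR-1b, which differs from miR-1-3p at 1 base (G17A) and was not analysed here. Reads that end before the last base, or that carry an error there, could be placed on either member of such a pair, so the split of counts between miR-133a-3p and miR-133b-3p is uncertain.

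The positions given here lie on 4 chromosomes of GRCr8. A single position was read for each mature miRNA, and further gene copies were not searched for. The mature miR-1-3p lies at chr18:2160339-2160360 and miR-133a-3p at chr18:2157886-2157907, both on the minus strand within the span of Mib1, with 2368 bases between their hairpins. miR-206-3p (chr9:30590747-30590768) and miR-133b-3p (chr9:30594629-30594650) lie on the plus strand within a long non-coding RNA gene, LOC120094648, with 3801 bases between their hairpins. miR-208a-3p (chr15:32395568-32395585) lies on the minus strand within Myh6 and miR-208b-3p (chr15:32421648-32421665) on the minus strand within Myh7, and each of them also lies within a long non-coding RNA gene (LOC108352923 and LOC120096985). miR-499-5p (chr3:164570616-164570636) lies on the plus strand within Myh7b. Mib1 encodes a ubiquitin ligase of Notch signalling, and the 3 Myh genes encode myosin heavy chains. Whether each lies in an exon or an intron was not read from the annotation used.

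The libraries held 6192155 to 18877136 counts (median 10739453.5), and 457 of the 723 miRNAs passed the filter on low counts. RNA integrity numbers (RIN) ran from 7.4 to 9.3, and the 2 libraries under 8 were the IL and PL of 1 abstinence rat. The neuronal list, which holds miR-124-3p and miR-9a-5p among others, summed to 159800 to 614100 CPM (counts scaled to a common library size with TMM factors), while the red cell list (3 of its 4 miRNAs in the table) summed to 0 to 3.23 CPM. The epithelial list reached 2718 CPM in the PL and 1375 CPM in the NAc of 1 withdrawal rat (M172), against 39.1 CPM in the lowest library.

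All members together made up a small part of each library, 0.00402% to 0.0121% of its counts. miR-206-3p led with 16308 counts over the 36 libraries, which was 56.6% of the members' counts and rank 214 of 723. miR-499-5p had 5400 counts (18.8%, rank 281), miR-1-3p 4680 counts (16.3%, rank 288) and miR-133a-3p 2285 counts (7.93%, rank 329). These 4 were counted in every library, from 177 to 952 counts of miR-206-3p, 23 to 442 of miR-499-5p, 22 to 374 of miR-1-3p and 19 to 136 of miR-133a-3p. Counts of different miRNAs also reflect how well each sequence enters a library, so this order is an order of counts. The remaining members were near or at 0. miR-133b-3p was counted in all 36 libraries but with 1 to 6 counts each, 116 in all. The 8 counts of miR-133a-5p came from 5 libraries, the 2 counts of miR-208a-3p from the NAc of naive rat M476, and the single count of miR-208b-3p from the NAc of withdrawal rat M154. No count was found for miR-1-5p, miR-133b-5p, miR-206-5p, miR-208a-5p, miR-208b-5p or miR-499-3p. For each of these 6, 0 of 390477775 counts allows a share of up to 0.00768 ppm, a limit of counting error only. The heart-type miRNAs of the miR-208 pair were thus at the limit of detection at this depth, while miR-499-5p, which shares bases 2 to 7 with them, was measured in all libraries.

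miR-133b-3p made up 4.83% of the counts of the miR-133a-3p and miR-133b-3p pair (exact 95% interval 4.01% to 5.77%). The share was 6.0% in the NAc (4.30% to 8.11%), 4.24% in the IL (3.0% to 5.8%) and 4.55% in the PL (3.27% to 6.15%). The share was not tested between regions.

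**Figure D1:**
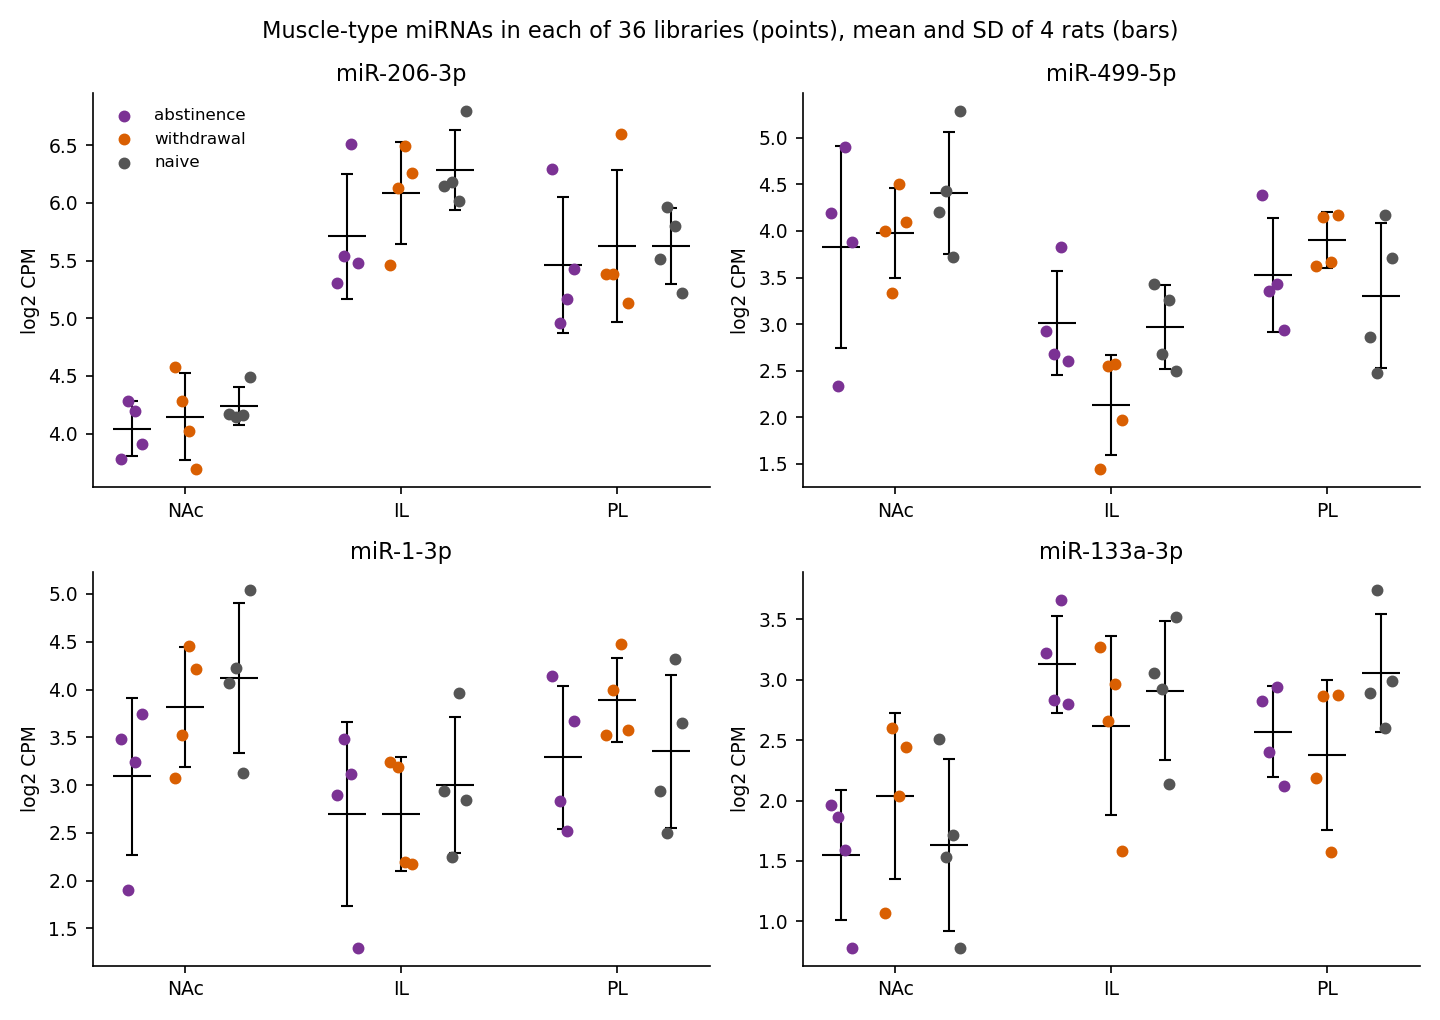
Level of the 4 tested miRNAs (log2 CPM, vertical axes) in each of the 36 libraries, by region (horizontal axes) and group (colours: abstinence, withdrawal, naive). Points are rats, long ticks are group means and bars are 1 SD (n = 4). For miR-206-3p all 12 NAc libraries, at 12.9 to 23.8 CPM, lie below every IL and PL library. Groups within a region overlap in all panels except for miR-499-5p in the IL, where abstinence lies above withdrawal (1 of 36 comparisons). The share of all miRNAs without overlap was not computed.

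The region comparison asked how the members were spread over the accumbens and the 2 cortical areas of the same rats. They did not share 1 pattern. miR-206-3p and miR-133a-3p were lower in the NAc than in the IL and the PL, miR-499-5p was higher in the NAc than in the IL, and miR-1-3p was also higher in the NAc than in the IL. A difference was called when its adjusted p (Benjamini-Hochberg over 457 miRNAs, edgeR quasi-likelihood test with the rat as a block and RIN as covariate) was under 0.05. At this threshold 67.4% of all miRNAs tested differed between the NAc and the PL, 76.4% between the NAc and the IL, and 38.1% between the IL and the PL. Of the 4 members, 2 were called between the NAc and the PL, 4 between the NAc and the IL, and 2 between the IL and the PL, so a call as such did not set them apart from other miRNAs. In bulk tissue, fewer cells of a type and less RNA per cell cannot be told apart.

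miR-206-3p, the skeletal muscle member, had the widest regional range. Its lowest, median and highest values were 12.9, 17.9 and 23.8 CPM in the NAc, 39.4, 70.4 and 111 CPM in the IL, and 31.0, 42.4 and 96.5 CPM in the PL. No NAc library reached the lowest cortical library. The share of all miRNAs that separated the regions as fully was not computed. The log2 fold change was -1.91 (SE 0.18, adjusted p = 4.99e-10) for the NAc against the IL and -1.47 (SE 0.18, adjusted p = 8.61e-08) for the NAc against the PL. Among all miRNAs tested, miR-206-3p ranked 36 by p and 69 by size of change against the IL. Against the PL it ranked 42 and 68, so other miRNAs differed more in both comparisons. The NAc was the lower region in 12 of 12 rats in both, with an exact sign-flip p of 0.000488, the smallest that 12 rats can give. Between the cortical areas it was higher in the IL in 10 of 12 rats (log2 fold change 0.44, SE 0.17, adjusted p = 0.048, exact sign-flip p = 0.0508), a call that 6 of the 12 fits without 1 rat lost.

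miR-133a-3p lay low in the accumbens as well. Its lowest, median and highest values were 1.67, 3.42 and 6.01 CPM in the NAc, 2.94, 7.65 and 12.6 CPM in the IL, and 2.93, 7.13 and 13.4 CPM in the PL. Here the regions overlapped, and 4 of the 12 NAc libraries lay below all libraries of each cortical area. The log2 fold change was -1.14 (SE 0.25, adjusted p = 0.000155, lower in 11 of 12 rats, exact sign-flip p = 0.00342) against the IL and -0.87 (SE 0.25, adjusted p = 0.00314, lower in 11 of 12 rats, exact sign-flip p = 0.00244) against the PL. With library totals alone as scaling the difference from the PL became -0.50 (adjusted p = 0.121) and was not called. That scaling moved the median of all miRNAs between the NAc and the PL by 0.36 and between the NAc and the IL by 0.27 on the log2 scale, and the share of calls that were higher in the NAc than in the PL was 75.4%, against 51.9% under TMM (64.9% against 53.9% for the NAc and the IL). Under it miR-499-5p was called higher in the NAc than in the PL (0.78, adjusted p = 0.00595). The IL and the PL were not called apart (0.27, SE 0.24, adjusted p = 0.395).

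miR-499-5p, the myosin gene member, went the other way. Its lowest, median and highest values were 5.01, 17.6 and 38.9 CPM in the NAc, 2.67, 6.19 and 14.1 CPM in the IL, and 5.51, 12.4 and 20.9 CPM in the PL. Of the 12 NAc libraries, 9 lay above the highest IL library. The log2 fold change was 1.36 (SE 0.25, adjusted p = 2.36e-05) for the NAc against the IL, with the NAc higher in 11 of 12 rats (exact sign-flip p = 0.000977). It was -0.92 (SE 0.25, adjusted p = 0.00842) for the IL against the PL, with the IL higher in 3 of 12 rats (exact sign-flip p = 0.0103). The NAc and the PL were not called apart (0.44, SE 0.25, adjusted p = 0.121), but the NAc was called higher without abstinence rat M363 (0.56, adjusted p = 0.0378) and in the 4 naive rats alone (1.04, adjusted p = 0.015, both by edgeR).

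miR-1-3p, which has the seed of miR-206-3p, did not follow it across regions. Its lowest, median and highest values were 3.68, 12.4 and 32.9 CPM in the NAc, 2.41, 7.53 and 15.5 CPM in the IL, and 5.62, 12.2 and 22.2 CPM in the PL. The NAc was called higher than the IL (log2 fold change 0.84, SE 0.28, adjusted p = 0.00859, higher in 9 of 12 rats, exact sign-flip p = 0.0479), and 4 of the 12 fits without 1 rat lost this call. The differences of the NAc from the PL (0.17, SE 0.27, adjusted p = 0.590) and of the IL from the PL (-0.67, SE 0.27, adjusted p = 0.0557) did not pass the threshold in edgeR. The lower level in the IL than in the PL was called by limma-voom (-0.80, adjusted p = 0.0287), by DESeq2 (-0.63, adjusted p = 0.0466) and by edgeR without abstinence rat M363 (-0.78, adjusted p = 0.0205). In the 4 naive rats alone the NAc was called higher than the PL (0.66, adjusted p = 0.0324 by edgeR).

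**Figure D2:**
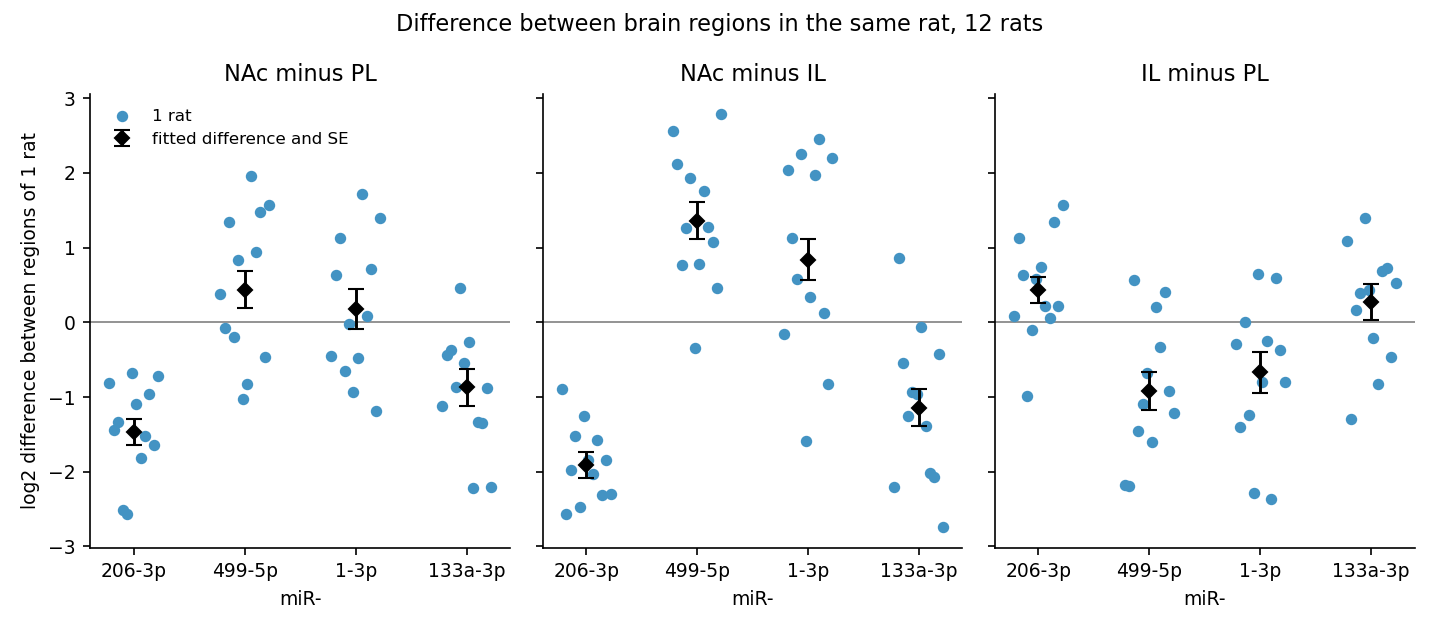
Difference in log2 CPM between 2 regions of the same rat (vertical axis) for the 4 tested miRNAs (horizontal axes) in 3 region pairs (panels). Points are the 12 rats, diamonds the fitted log2 fold changes and bars their SE. miR-206-3p lies below 0 in all 12 rats when the NAc is set against either cortical area, while miR-499-5p lies above 0 in 11 of 12 rats for the NAc against the IL.

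The ratio of 2 miRNAs within a library does not depend on the scaling of that library. Of the counts of miR-206-3p and miR-1-3p together, miR-206-3p made up 56.0% in the NAc (exact 95% interval 54.6% to 57.3%), 90.1% in the IL (89.4% to 90.7%) and 79.4% in the PL (78.5% to 80.3%). By library the share ran from 40.5% to 84.1% in the NAc (median 54.0%), from 80.6% to 95.2% in the IL (median 90.8%) and from 72.4% to 91.7% in the PL (median 79.9%). The share was thus lowest in the NAc, and its range there was wide enough to meet both cortical ranges. The log2 ratio of miR-1-3p to miR-206-3p averaged -0.47 ± 0.89 in the NAc, -3.22 ± 0.87 in the IL and -2.06 ± 0.60 in the PL (SD, n = 12 each). It was higher in the NAc than in the PL and the IL in 11 of 12 rats each, and higher in the IL than in the PL in 1 of 12 rats (exact sign-flip p = 0.000977 in all 3, of 15 such ratios compared). miR-1-3p and miR-133a-3p, whose hairpins are neighbours, also changed their ratio. Their log2 ratio averaged 1.94 ± 1.07 in the NAc and -0.09 ± 0.88 in the IL (SD, n = 12 each), and it was higher in the NAc in 10 of 12 rats (exact sign-flip p = 0.00342). For miR-1-3p and miR-499-5p the ratio was -0.40 ± 0.52 in the NAc and 0.10 ± 0.83 in the IL, higher in the NAc in 4 of 12 rats (exact sign-flip p = 0.116).

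Other signals moved between the regions too. The 2 endothelial miRNAs of the list (both arms of miR-126a) were called higher in the NAc against both cortical areas, with sums of 1335 to 9087 CPM in the NAc, 815.6 to 3063 CPM in the IL and 730.4 to 5524 CPM in the PL. The 4 miRNAs of the smooth muscle and pericyte list summed to 1161 to 4376 CPM in the NAc, 635.0 to 2985 CPM in the IL and 798.8 to 3036 CPM in the PL. Of these 4, 2 were called higher and 2 lower in the NAc against the IL. Over all miRNAs, 41.1% were called higher and 35.2% lower in the NAc against the IL. Against the PL the shares were 35% and 32.4%. The red cell list stayed at or under 3.23 CPM in the NAc, 0.945 CPM in the IL and 1.78 CPM in the PL. The part of other cell types in the regional differences of the members was not tested. The list of other miRNAs studied in muscle but not restricted to it, such as miR-378a-3p and miR-30a-5p, had 10 of its 13 miRNAs in the table. Of these 10, 4 were called higher and 2 lower in the NAc against the IL, with a median log2 fold change of 0.06 against 0.10 over all miRNAs. Against the PL, 4 were higher and 4 lower.

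The group comparisons asked whether cocaine withdrawal or abstinence came with other levels of these miRNAs within a region. Age at tissue collection was not in the model, and its part in the changes between groups was not tested. The part of surgery and behavioural testing in the changes against naive rats was not tested either. A change was called when it was at least 1.5-fold with an unadjusted p under 0.05, the study's own threshold, and the Benjamini-Hochberg adjusted p over 457 miRNAs is given beside it. Among the 36 changes of the 4 tested members in 9 comparisons, 1 was called, miR-499-5p in the IL for abstinence against withdrawal. No member had an adjusted p under 0.05 in edgeR, limma-voom or DESeq2, and each of these tools gave 1 of the 36 an unadjusted p under 0.05. In the IL, the same call was made for 6.35% of all miRNAs for abstinence against withdrawal, 8.32% for abstinence against naive and 6.35% for withdrawal against naive. In the PL it was made for 3.5%, 2.41% and 4.81% in the same order of comparisons, and in the NAc for 0.875%, 1.09% and 2.84%. A single call among 36 is a share within this range.

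In the IL, miR-499-5p measured 7.57, 6.38, 14.1 and 6.03 CPM in abstinence rats, 2.67, 5.79, 5.91 and 3.88 CPM in withdrawal rats, and 10.8, 6.35, 9.52 and 5.60 CPM in naive rats. The abstinence and withdrawal values did not overlap, although 6.03 and 5.91 CPM lay next to each other, while the naive values overlapped with those of both other groups. The means were 3.01 ± 0.56 log2 CPM in abstinence rats and 2.13 ± 0.54 log2 CPM in withdrawal rats (SD, n = 4 each). The log2 fold change was 0.91 (SE 0.41), with p = 0.0337 and an adjusted p of 0.529 (edgeR quasi-likelihood test), and the exact permutation p was 0.0286, the smallest that 4 against 4 can give. Against naive rats miR-499-5p was not called in abstinence (0.35, SE 0.42, p = 0.401 by edgeR, exact permutation p = 0.914) nor in withdrawal (-0.56, SE 0.42, p = 0.196 by edgeR, exact permutation p = 0.0857). The call was lost in 7 of the 12 fits without 1 rat, with log2 fold changes of 0.59 to 1.14 and p of 0.0155 to 0.176, and 0.59 was the value without abstinence rat M472, the highest of its group. Without the 2 libraries of RIN under 8 the change was 0.70 (SE 0.43) and was not called.

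The change of miR-499-5p in the IL was not shown to be particular to that region. For abstinence against withdrawal it was 0.0059 (SE 0.42) in the PL and 0.20 (SE 0.40) in the NAc. The difference between the changes was 0.90 (SE 0.58, adjusted p = 0.965 by edgeR) for the IL minus the PL and -0.71 (SE 0.57, adjusted p = 1 by edgeR) for the NAc minus the IL. With the rat as a random block in limma-voom the first of these was 1.14 (SE 0.56), with an unadjusted p under 0.05 and an adjusted p of 0.920. In the same fit the IL minus PL difference for withdrawal against naive was -1.16 (SE 0.56), again with an unadjusted p under 0.05 and with an adjusted p of 0.270, against -0.97 (SE 0.58, adjusted p = 0.443) by edgeR. For abstinence against withdrawal in the IL, 3.06% of all miRNAs were called higher and 3.28% lower in abstinence. The sums of the cell type lists given here overlapped between the 2 groups. In the IL the endothelial list had a median of 1128 CPM in abstinence and 1136 CPM in withdrawal rats. For the smooth muscle and pericyte list the medians were 1366 and 1418 CPM. The epithelial list summed to 39.4 to 48.2 CPM in abstinence and 45.8 to 186.9 CPM in withdrawal rats (highest in M172), with 1 of 8 called lower in abstinence. The choroid plexus and ependymal list summed to 1168 to 1748 CPM in abstinence and 1270 to 2842 CPM in withdrawal rats, with 2 of 7 called lower. Of the 7 neuronal miRNAs 2 were called higher, while the sum of that list had a median of 228300 CPM in abstinence (159800 to 329000) and 259000 CPM in withdrawal rats (197000 to 332600). Their part in the change was not tested. None of the 10 other muscle-associated miRNAs was called there.

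**Figure D3:**
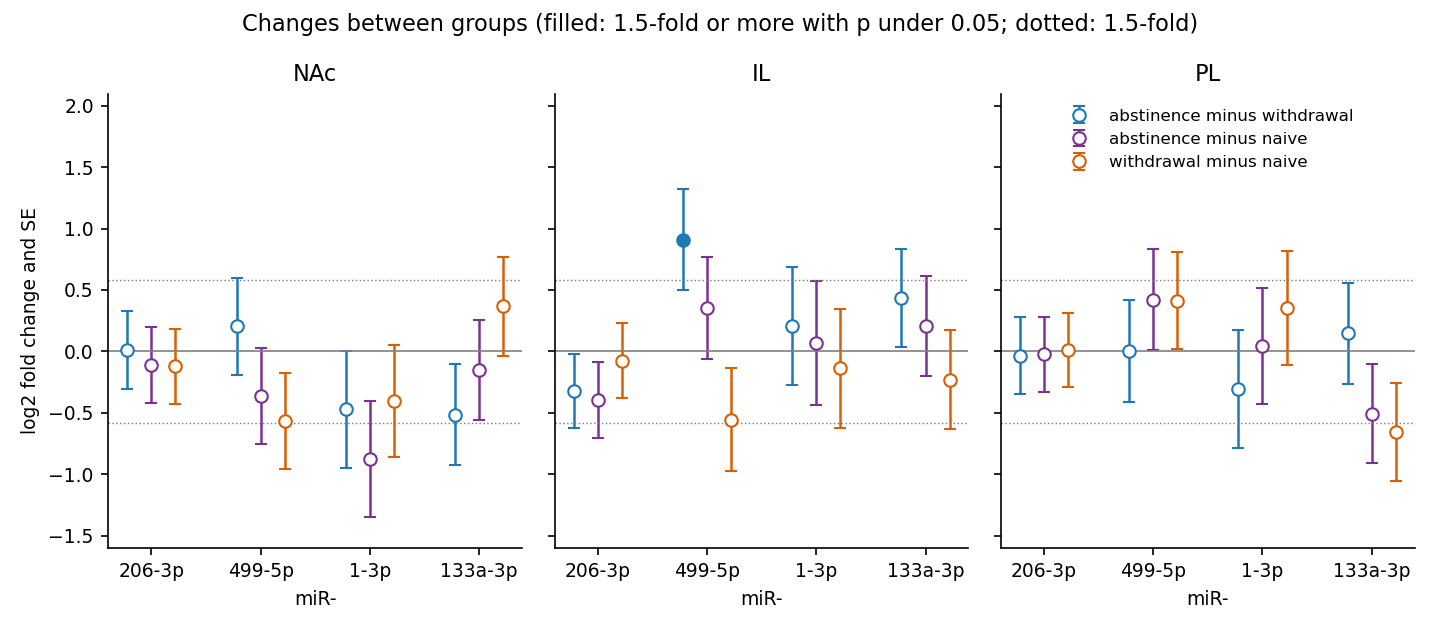
Log2 fold changes between groups (vertical axis) of the 4 tested miRNAs (horizontal axes) in the NAc, IL and PL (panels), with SE bars. Colours mark abstinence minus withdrawal, abstinence minus naive and withdrawal minus naive, dotted lines mark 1.5-fold, and the filled point is the 1 change called, miR-499-5p in the IL at 0.91.

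No other member passed the threshold. miR-1-3p in the NAc came nearest to the threshold, with 11.1, 3.68, 9.38 and 13.4 CPM in abstinence rats, 8.40, 11.5, 21.8 and 18.5 CPM in withdrawal rats, and 16.8, 18.7, 8.72 and 32.9 CPM in naive rats. The groups overlapped. The log2 fold change for abstinence against naive was -0.87 (SE 0.47, p = 0.0732, adjusted p = 0.887 by edgeR, exact permutation p = 0.143), and it passed the threshold with library totals alone (-0.95, p = 0.0295 by edgeR) and without RIN as covariate (-1.03, p = 0.0383 by edgeR), as it did without abstinence rat M456 or naive rat M476. In the PL, miR-133a-3p measured 7.04, 5.25, 7.61 and 4.29 CPM in abstinence rats, 4.52, 7.22, 2.93 and 7.28 CPM in withdrawal rats, and 7.36, 13.4, 6.01 and 7.91 CPM in naive rats. Its log2 fold change was -0.65 (SE 0.40, p = 0.111 by edgeR, exact permutation p = 0.143) for withdrawal against naive. Here too the groups overlapped.

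None of the 9 changes of miR-206-3p between groups was called with all 12 rats. Their log2 fold changes lay between -0.40 and 0.01, with SE of 0.30 to 0.32. In the IL, abstinence rat M472 had 90.9 CPM against 39.4 to 46.5 CPM in the other abstinence rats. This value was not flagged in the test for a sample far from the others. Without M472 the change in the IL passed the threshold for abstinence against withdrawal (-0.69, SE 0.32, adjusted p = 0.598 by edgeR) and for abstinence against naive (-0.73, SE 0.35, adjusted p = 0.272 by edgeR), where it had been -0.32 and -0.40 with all rats. In the other 11 fits without 1 rat neither was called. In the NAc it averaged 16.6 ± 2.71 CPM in abstinence, 18.1 ± 4.66 CPM in withdrawal and 19.0 ± 2.31 CPM in naive rats. In the IL the means were 55.4 ± 23.9, 70.2 ± 19.3 and 79.7 ± 21.0 CPM in the same order of groups, and in the PL 47.1 ± 21.5, 53.7 ± 28.7 and 50.1 ± 11.1 CPM (SD, n = 4 each). The 3 NAc means were the lowest of the 9, and no NAc library overlapped with a cortical one. Among naive rats the IL (64.5 to 111 CPM) also lay above the PL (37.1 to 62.3 CPM) without overlap, while the IL and PL ranges overlapped in abstinence and in withdrawal rats. The share of all miRNAs without overlap there was not computed. A fit of the naive rats alone did not call the IL and the PL apart (0.66, adjusted p = 0.883 by edgeR). The change against naive did not differ clearly between the areas. For the IL minus the PL it differed by -0.37 in abstinence (SE 0.43, adjusted p = 0.779 by edgeR). In withdrawal it differed by -0.088 (SE 0.44, adjusted p = 0.926 by edgeR).

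The counts of each rat were also summed over its 3 regions, which gave 12 values and let miR-133b-3p pass the filter. At the same threshold, 1.86%, 2.07% and 1.86% of the 483 miRNAs tested were called for abstinence against withdrawal, abstinence against naive and withdrawal against naive. None of the 5 members tested was called. For miR-1-3p the change for abstinence against naive was under 1.5-fold (log2 fold change -0.56, SE 0.23, p = 0.0303, adjusted p = 0.511 by edgeR, exact permutation p = 0.114), at 3.20 ± 0.33 log2 CPM in abstinence and 3.75 ± 0.39 log2 CPM in naive rats (SD, n = 4 each). It was the 1 member with an unadjusted p under 0.05. Over the whole rat miR-499-5p had a log2 fold change of 0.0012 (SE 0.27) for abstinence against withdrawal, and miR-133b-3p had a log2 fold change of -0.46 (SE 0.36) for withdrawal against naive.

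Across the 36 libraries each member had its own companions. For every tested member, the 3 other miRNAs most like it were taken by Pearson's r of log2 CPM after the 9 means of group and region were removed. The libraries share rats, and abundant miRNAs in a library move the share left for others, so these values are given as a description. miR-1-3p was most like miR-143-3p (r = 0.861 after removal, 0.869 before) and miR-145-3p (0.833 and 0.868), both known from vascular smooth muscle, followed by miR-152-3p (0.792 and 0.723). The relation with miR-143-3p was 0.872 in the NAc, 0.796 in the IL and 0.896 in the PL (n = 12 each). Spearman's rho was 0.882, and r was 0.879 without the 2 libraries farthest from the median. The other arms did not follow, with r before removal of -0.007 for miR-143-5p and -0.348 for miR-145-5p. After removal, the TMM scaling factor of the library had r = -0.633 with miR-1-3p and -0.619 with miR-143-3p.

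**Figure D4:**
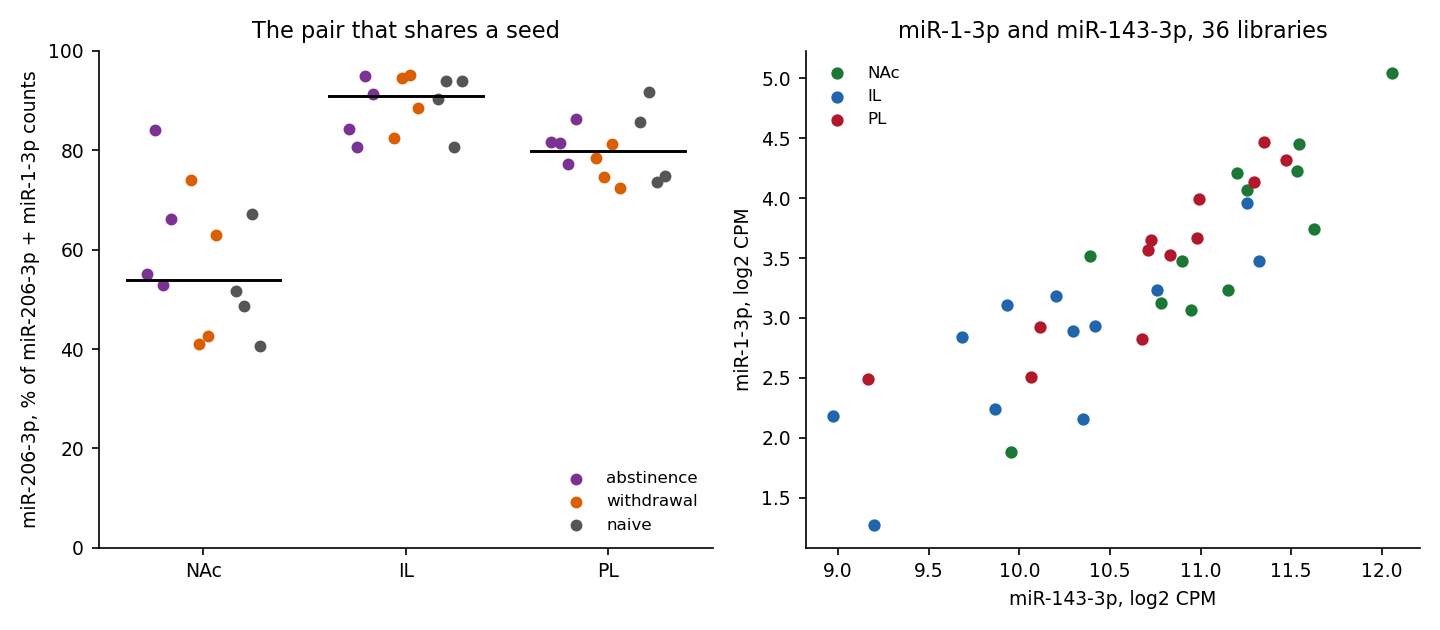
Left, miR-206-3p as a percentage of the miR-206-3p and miR-1-3p counts of a library, by region and group (points are libraries, lines are the medians of 12, at 54.0% in the NAc, 90.8% in the IL and 79.9% in the PL). Right, miR-1-3p against miR-143-3p (both axes log2 CPM) in the 36 libraries, coloured by region, with r = 0.869.

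miR-499-5p was most like miR-22-5p (r = 0.832 after removal, 0.872 before), miR-9a-3p (0.83 and 0.876), the partner strand of a miRNA of neural cells, and miR-380-3p (0.820 and 0.790). These were also called higher in the NAc against the IL, as 41.1% of all miRNAs were. There the log2 fold change was 1.18 (SE 0.18) for miR-22-5p, 2.13 (SE 0.25) for miR-9a-3p and 2.55 (SE 0.20) for miR-380-3p. Against the PL miR-22-5p was not called (0.32, SE 0.19), while miR-9a-3p (1.30, SE 0.25) and miR-380-3p (1.92, SE 0.20) were called higher. In the IL for abstinence against withdrawal, where miR-499-5p was called, they measured 0.02 (SE 0.32), 0.62 (SE 0.40) and 0.21 (SE 0.32), and none was called. Several summed lists were related to miR-499-5p too. Its r was 0.858 before removal and 0.765 after with the endothelial list, and 0.790 and 0.702 with the other muscle-associated list. With the neuronal list it was 0.411 and 0.603, and with the choroid plexus and ependymal list 0.166 and -0.134. The endothelial list also had r of 0.781 and 0.719 with miR-1-3p. With miR-1-3p the neuronal list had 0.577 and 0.692, and the other muscle-associated list 0.673 and 0.537. The choroid plexus and ependymal list had 0.327 and 0.384 with it, and the epithelial list 0.312 and 0.275.

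miR-133a-3p was most like miR-150-5p (r = 0.728 after removal, 0.847 before), miR-3085 (0.723 and 0.417) and miR-342-3p (0.722 and 0.397). miR-206-3p had the weakest companions, miR-344b-1-3p (0.662 and 0.319), miR-342-5p (0.596 and 0.856) and miR-539-5p (0.541 and 0.241). For the NAc against the IL, 2 of these 6 companions were called lower, as 35.2% of all miRNAs were. They were miR-342-5p with a log2 fold change of -1.33 (SE 0.15) and miR-150-5p with -0.90 (SE 0.11). The other 4 were not called, at 0.053 for miR-3085, 0.13 for miR-342-3p, -0.018 for miR-344b-1-3p and -0.013 for miR-539-5p. After removal, the TMM scaling factor of the library had r = 0.584 with miR-133a-3p and 0.683 with miR-150-5p. With miR-206-3p it had -0.419 and with miR-342-5p -0.694, and with miR-499-5p -0.411 and with miR-22-5p -0.398. The part of the scaling in these likenesses was not tested. Among the members themselves the pair most alike was miR-1-3p with miR-499-5p (r = 0.700 before removal, 0.584 after). miR-1-3p and miR-133a-3p, with neighbouring hairpins, had r = -0.352 before and -0.191 after removal, and miR-1-3p and miR-206-3p, with a common seed, -0.285 and 0.063.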

How the data were processed

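Small RNA libraries (NEBNext) of dissected NAc, IL and PL tissue from 12 rats were sequenced, and the authors deposited 1 table of raw counts of mature miRNAs, with no normalization, made with the CAP-miRseq pipeline. The study's methods name the rn6 genome, and the submitters' processing notes name mRatBN7.2 (rn7). The 36 columns were matched to the labels by name, and 0 columns of per-sample values were left unused. Groups and regions came from the labels. The rat of each library came from the study's sample table by number, region and RIN, except for 1 NAc library of a naive rat that was tied by exclusion. The labels name no replicate numbers.

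Counts were filtered with filterByExpr (minimum count 10, minimum total 15), which left 457 of 723 miRNAs and 99.9981% of the counts, and were scaled by TMM. CPM were computed by edgeR from the TMM-scaled library sizes, and log2 CPM used a prior count of 0.5. Group comparisons used edgeR's quasi-likelihood test over all 36 libraries, with the 9 combinations of group and region and RIN in the model. Region comparisons used the same test with the rat as a fixed block, since the 3 regions of a rat were paired by the animal. Adjusted p-values are Benjamini-Hochberg over all miRNAs tested. The quasi-likelihood test gives no SE. Each SE beside an edgeR value is the size of the log2 fold change divided by the square root of its F statistic. Exact permutation tests (4 against 4) and exact sign-flip tests (12 rats) were two-sided, and log ratios of counts used a pseudocount of 0.5. Group tests treat the libraries of 1 rat as independent, and the fit with the rat as a random replicate block gave a consensus correlation of 0.117. The 4 rats of a group are separate animals.

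Library totals ran from 6192155 to 18877136, and member counts from 1 to 952 where detected, so intervals of shares (exact Clopper-Pearson, 95%) and limits for 0 counts (3 counts) cover counting error only. No 2 libraries of a group and region agreed within sampling noise (lowest chi-square per degree of freedom 166 over 54 pairs). Alternatives were another scaling (RLE, library totals), filter, tool (limma-voom, DESeq2), covariate, set of libraries, sum of near-identical miRNAs, prior count, and leaving out each rat. The text names all members and, for each tested member, the 3 miRNAs most like it. The members, marker lists and tests were chosen with earlier results of these data known. R 4.3.3, edgeR 4.0.16, limma 3.58.1, DESeq2 1.42.0 and Python 3.11.15 with matplotlib 3.10.9 were used, and the scripts were tested on simulated data.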

Additional observations from a re-analysis of the deposited data

Results flagged for a closer look

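Among the 36 groups of 4 libraries tested for a sample far from the others (4 tested miRNAs in 9 combinations of group and region), 1 was flagged. In the NAc of naive rats, miR-206-3p measured 22.4 CPM in rat M480, against 17.7, 17.9 and 18 CPM in the other naive rats. Its gap to the nearest rat was 0.934 of the range of the group, over the 95% critical value for 4 samples. Chance flags about 1 in 20 groups. This is the NAc library whose rat was tied by exclusion, and its group came from its own labels. Of the 36 differences between regions in a group change, 0 had an unadjusted p under 0.05 by edgeR. With the rat as a random block in limma-voom 2 had, both of miR-499-5p for the IL minus the PL, at 1.14 for abstinence against withdrawal (adjusted p = 0.920) and -1.16 for withdrawal against naive (adjusted p = 0.270).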

How the results depend on the processing

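Of 516 values under alternatives other than leaving out a rat, 467 kept their direction and their side of the threshold. The regional differences of all 4 tested members between the NAc and the IL, and of miR-206-3p between the NAc and the PL, kept their call in all of them. miR-133a-3p in the NAc against the PL was -0.50 (adjusted p = 0.121) with library totals alone. In the IL against the PL, miR-206-3p was 0.43 (adjusted p = 0.0691) without a filter, and in the 4 naive rats alone, where the replicate block holds fewer rats, miR-206-3p was 0.66 and miR-499-5p -0.61 (adjusted p = 0.883 each). Those 4 rats gained calls in the NAc against the PL for miR-1-3p (0.66, adjusted p = 0.0324, against 0.17 in all rats) and miR-499-5p (1.04, adjusted p = 0.015, against 0.44). Without the replicate block no regional call was lost, where miR-1-3p in the NAc against the IL was 0.81. miR-499-5p in the IL for abstinence against withdrawal was 0.70 (adjusted p = 0.494 by edgeR) without libraries of RIN under 8, and kept its call in the other 10 alternatives; its adjusted p ran from 0.492 to 0.642 over all 11. The cause of these changes was not tested.

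Leaving out each rat gave 0.51 to 1.04 for miR-1-3p in the NAc against the IL (adjusted p up to 0.0969, call lost without M456, M172, M378 or M480), 0.40 to 0.61 for miR-206-3p in the IL against the PL (adjusted p up to 0.105, call lost without M363, M472, M366, M154, M157 or M480), and 0.59 to 1.14 for miR-499-5p in the IL for abstinence against withdrawal (call lost without M170, M472, M153, M172, M154, M378 or M476). The other called regional differences kept their call without any 1 rat.

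No called value changed sign. Reversed signs came from 16 group changes whose log2 fold change was at most 0.23 in size. For miR-206-3p in the PL, abstinence against naive was 0.0385 with RLE, 0.0387 with DESeq2, 0.0295 without a filter, 0.0592 with the stricter filter, 0.10 in the 8 libraries alone, 0.10 without RIN under 8 and 0.0163 with near-identical members summed. Abstinence against withdrawal was 0.0053 with RLE, 0.0564 with library totals, 0.0142 without a filter, 0.00455 with the rat as a random replicate block, 0.0065 with DESeq2, 0.22 in the 8 libraries alone and 0.0196 without RIN under 8. Withdrawal against naive was -0.15 with library totals, -0.0693 with limma-voom, -0.0712 with the replicate block and -0.13 in the 8 libraries alone. In the NAc, abstinence against withdrawal for miR-206-3p was -0.0539 with library totals, -0.12 without RIN as covariate, -0.21 in the 8 libraries alone and -0.16 with near-identical members summed. For miR-499-5p in the PL, abstinence against withdrawal was -0.11 with limma-voom, -0.13 with the replicate block, -0.30 without RIN as covariate, -0.25 in the 8 libraries alone and -0.12 without RIN under 8. For miR-1-3p in the IL, abstinence against naive was -0.0374 with limma-voom, -0.0149 with the replicate block, -0.25 without RIN as covariate, -0.36 in the 8 libraries alone, -0.34 without RIN under 8 and -0.31 summed with miR-206-3p. Without RIN under 8, miR-1-3p in the IL was 0.17 for withdrawal against naive and -0.51 for abstinence against withdrawal, which was -0.25 when summed. In the PL, abstinence against naive for miR-1-3p was -0.0914 without RIN as covariate.

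Leaving out each rat turned signs in ranges of -0.36 to 0.55 (abstinence against naive), -0.30 to 0.50 (abstinence against withdrawal) and -0.41 to 0.25 (withdrawal against naive) for miR-1-3p in the IL, and -0.0908 to 0.42 (abstinence against naive) in the PL. For miR-133a-3p they were -0.0578 to 0.42 (abstinence against naive) and -0.44 to 0.10 (withdrawal against naive) in the IL, -0.000148 to 0.38 (abstinence against withdrawal) in the PL and -0.32 to 0.22 (abstinence against naive) in the NAc. For miR-206-3p they were -0.14 to 0.20 (withdrawal against naive) in the IL, -0.18 to 0.28 (abstinence against naive), -0.27 to 0.34 (abstinence against withdrawal) and -0.33 to 0.26 (withdrawal against naive) in the PL, and -0.14 to 0.19 (abstinence against withdrawal) and -0.26 to 0.0238 (withdrawal against naive) in the NAc. For miR-499-5p, abstinence against withdrawal gave -0.21 to 0.35 in the PL and -0.13 to 0.46 in the NAc.

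Counts of all miRNAs called moved by over 1.5 times in the NAc for abstinence against withdrawal (4, against 1 with limma-voom, 7 with DESeq2 and 8 without RIN as covariate), abstinence against naive (5, against 9 with library totals and 10 without RIN) and withdrawal against naive (13, against 6 with limma-voom), in the PL for abstinence against withdrawal (16, against 9 with limma-voom), and in the IL without RIN for abstinence against naive (38, against 58) and withdrawal against naive (29, against 45). At this depth 4 of the 14 members had enough counts to be tested by library.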
